A study of Caenorhabditis elegans with 6 samples.

Results

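The cytochrome P450 (cyp) and UDP-glucuronosyltransferase (ugt) genes of Caenorhabditis elegans were followed here in ddi-1(icb156) mutants and wild-type animals, and the families were kept apart throughout. A gene was taken as a member when its symbol in the WBcel235 annotation starts with cyp- and a number, or is ugt- and a number. This gave 74 cyp and 67 ugt genes, 141 of the 20000 genes in the data, and all annotated genes with such symbols were in the files. No measured value was used to choose them. Of these, 60 cyp and 63 ugt genes had enough counts to be tested, while 14 cyp and 4 ugt genes did not.

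Cytochromes P450 are haem enzymes that place oxygen on lipophilic substrates, and UDP-glucuronosyltransferases join a sugar from a UDP-sugar donor to such products, which makes them soluble and ready for export. In C. elegans both families expanded into many genes, much of their expression lies in the intestine, and several members are induced by foreign compounds. Some P450s act on internal substrates instead, such as fatty acids, sterols and the lipids of the eggshell.

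The mutant group consisted of 3 libraries of animals carrying ddi-1(icb156), a non-synonymous loss-of-function allele of the gene for DDI-1, the aspartic protease that cleaves and activates the proteasome regulator SKN-1A. The control group consisted of 3 wild-type libraries. All 6 libraries were made from whole L4 larvae grown at 20°C on E. coli OP50, with RNA taken up in TRIzol, and the labels call the samples of a group biological replicates. The allele came from a chemical mutagenesis screen on animals with a chil-27p::GFP reporter transgene, and the strain listed with it carries that reporter together with col-12p::mCherry. Whether the wild-type samples carry the transgene, and which other mutations the screen left in the mutant strain, is left unsaid by the labels and the methods, so these cannot be told apart from the allele. Since the allele changes a codon, the amount of ddi-1 mRNA does not check the labels.

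Each ddi-1(icb156) library held 28962104 to 36258118 estimated counts, and each wild-type library 40554395 to 47142002. On the leading principal component of all genes (78.47% of the variance), the ddi-1(icb156) libraries lay at -62.78 to -50.64, and wild-type replicates 1 and 3 lay at 77.34 and 74.89. Wild-type replicate 2 stood apart from its group at 17.19, between the mutants and the other wild-type libraries. On the second component it lay at -49.95, away from all other libraries of either group (-0.5299 to 15.86). Results below are therefore also given without it. The groups differed in germline and yolk transcripts: 11 of 12 oocyte and eggshell markers fell in ddi-1(icb156), with a summed level of 262.2 to 336.6 CPM (counts scaled to the size of each library) against 463.8 to 1031 CPM in wild type, and all 6 yolk protein genes fell, with 302.1 to 535.9 CPM against 2754 to 5709 CPM. In both lists the lowest wild-type sum was that of replicate 2. Of 8 sperm markers 3 fell and 1, fog-1, rose, with sums of 77.05 to 87.36 CPM in ddi-1(icb156) against 78.18 to 127.5 CPM in wild type. Of 8 neuronal markers 3 rose and none fell, or 7 without wild-type replicate 2, with sums of 382.9 to 428.7 CPM against 282.6 to 349.6 CPM, and of 6 body wall muscle markers 1 fell, with sums of 13560 to 16130 CPM against 14980 to 15230 CPM. Of 10 intestinal markers 1 rose, with sums of 7744 to 8953 CPM in ddi-1(icb156) against 6686 to 7865 CPM in wild type, and of 8 epidermal markers 2 rose, with sums of 5156 to 5854 CPM against 4290 to 5922 CPM. Without wild-type replicate 2 all 12 oocyte and eggshell markers and all 6 yolk protein genes fell, and 5 sperm markers fell and 2 rose. In that fit 2 intestinal and 4 epidermal markers rose and 0 fell, and 0 muscle markers passed. The part of these differences in the results below was not tested. In whole animals, fewer cells of a type and less RNA per cell cannot be told apart.

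Both families held more genes that rose than genes that fell. A gene passed when edgeR's quasi-likelihood test gave a p below 0.01 and a Benjamini-Hochberg adjusted p below 0.1 over all 15409 genes tested. Of the 60 tested cyp genes, 8 rose (13.3%), 1 fell (1.67%) and 51 did not pass. Of the 63 tested ugt genes, 9 rose (14.3%), 2 fell (3.17%) and 52 did not pass. Over all genes tested, 9.96% rose and 13.4% fell, so the shares of members that rose lay close to that of all genes, while the shares that fell lay below it. At an unadjusted p under 0.05 the counts were 14 higher and 4 lower for cyp genes and 17 higher and 4 lower for ugt genes, and DESeq2 called 12 and 3 cyp genes and 14 and 2 ugt genes. Here and below, the shares of all genes at that limit and by DESeq2 were not counted. No excess of members can therefore be read from these counts.

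The median log2 fold change was 0.19 over the tested cyp genes (quartiles -0.19 and 0.54, range -0.81 to 2.36) and 0.30 over the tested ugt genes (quartiles -0.11 and 0.74, range -2.44 to 4.28), against 0.0051 over all genes tested (quartiles -0.26 and 0.35). Every ddi-1(icb156) sample lay above every wild-type sample in 15 tested cyp and 16 tested ugt genes, a state found in 23.4% of all genes tested. Every ddi-1(icb156) sample lay below every wild-type sample in 5 cyp and 4 ugt genes, against 23.5% of all genes. With the replicate number as a block, 8 cyp genes rose and 2 fell (9.11% and 14.3% of all genes), and the count of ugt genes that rose grew to 16, which included 8 of the 9, with 2 that fell. Without wild-type replicate 2, 20 cyp genes rose and 7 fell, and 26 ugt genes rose and 7 fell, where 19.7% and 22.2% of 15643 genes did so. Leaving out any other single library gave 3 to 6 cyp and 3 to 4 ugt genes that rose, and 0 to 1 cyp and 1 to 2 ugt genes that fell. The shares of all genes in those fits were not counted.

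**Figure D1:**
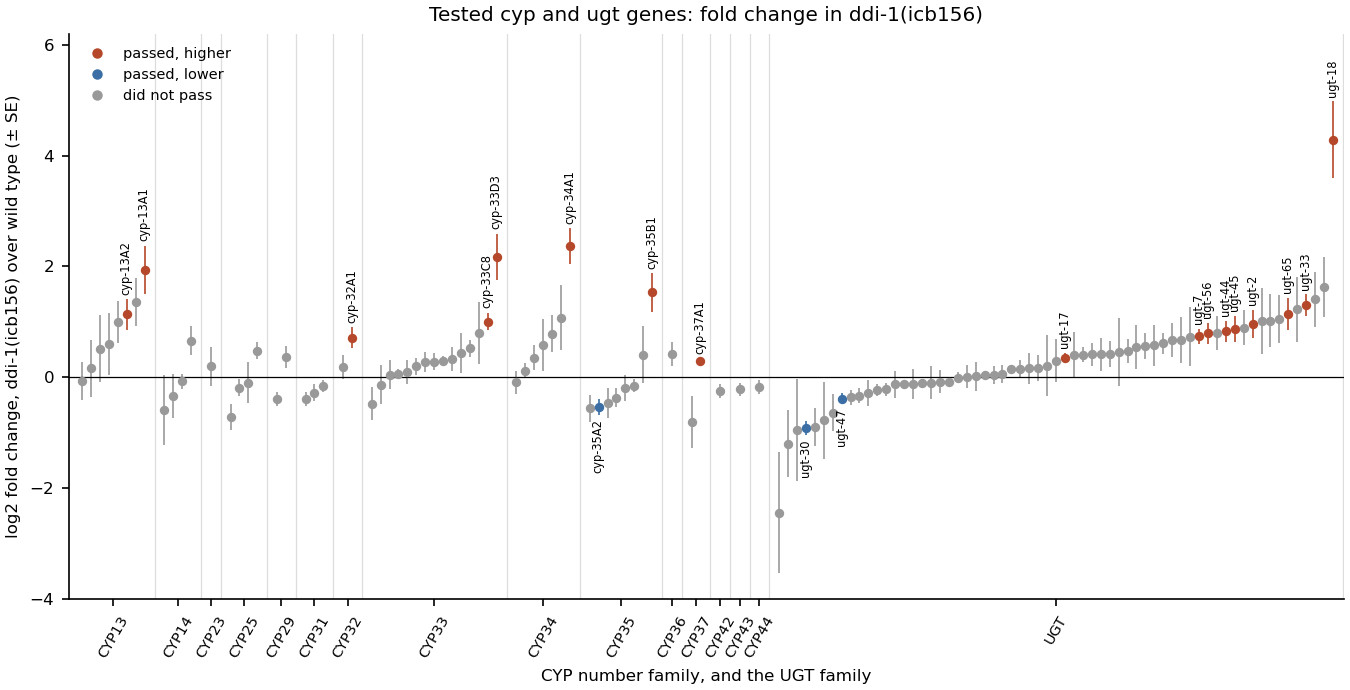
Fitted log2 fold change of ddi-1(icb156) over wild type with its SE for each tested member (y axis), ordered within the CYP number families and the UGT family (x axis); red and blue points passed the test as higher and lower, grey points did not. The largest value is that of ugt-18 at 4.28, most members lie within 1 of 0, and the members that fell, cyp-35A2, ugt-30 and ugt-47, changed by less than 1.

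Among the P450s, the increases of smallest p were those of the single genes cyp-34A1, cyp-33C8 and cyp-33D3. They are members of the CYP33 and CYP34 families, which belong to the P450s that expanded in nematodes. cyp-34A1 (WBGene00011698, chromosome V, 15285556 to 15287956, minus strand) had 1.64, 1.47 and 1.88 CPM in the ddi-1(icb156) samples, against 0.307, 0.451 and 0.203 CPM in the wild-type samples. The 3 mutant samples were all above the wild-type samples with a wide gap, and the log2 fold change was 2.36 ± 0.32 (SE; adjusted p = 0.00600, edgeR's quasi-likelihood test). cyp-33C8 (WBGene00019967, chromosome V, 3800782 to 3803542) had 7.20, 7.39 and 8.14 CPM in ddi-1(icb156), against 3.39, 4.34 and 3.59 CPM in wild type. Replicates of either group lay close together, the groups did not overlap, and the log2 fold change was 1.01 ± 0.16 (adjusted p = 0.00914, edgeR). cyp-33D3 (WBGene00012448, chromosome V, 18832264 to 18837225) had 0.536, 0.901 and 0.759 CPM in ddi-1(icb156), against 0.131, 0.251 and 0.102 CPM in wild type. This gene rested on few counts, 76 over the ddi-1(icb156) samples and 20 over the wild-type samples, and its log2 fold change was 2.17 ± 0.42 (adjusted p = 0.0183, edgeR) with no overlap of the groups. These 3 genes also passed in each of the 6 fits that left out 1 library. However, cyp-33D3 was kept by the filter on low counts through its mutant samples alone, so its passing is no separate support. The same limit holds for cyp-34A1. It needed mutant samples to be kept, since wild-type replicate 3, at 8 counts, lay below the level of the filter. Neither cyp-34A1 nor cyp-33D3 had enough counts for the stricter filter.

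Other tested members of these families did not pass. Over all genes tested, 9.96% rose and 13.4% fell. Of the 15 tested CYP33 genes of 18, 2 rose, none fell and 13 did not pass, and their log2 fold changes ran from -0.48 to 2.17 around a median of 0.28. At an unadjusted p under 0.05, 4 were higher and 0 lower, and DESeq2 called 4 higher and 0 lower. Of the 7 tested CYP34 genes of 8, only cyp-34A1 rose and none fell (1 higher and 0 lower at an unadjusted p under 0.05, and the same by DESeq2), with a median of 0.59. Another of them, cyp-34A5, picked here after its values were seen, had 0.369, 0.463 and 0.759 CPM in ddi-1(icb156), against 0.175, 0.476 and 0.102 CPM in wild type, and the groups overlapped through wild-type replicate 2 (log2 fold change 1.08 ± 0.59, adjusted p = 0.215, edgeR). It passed without that replicate (1.89). The neighbour of cyp-34A1 on chromosome V, cyp-34A2, likewise picked after its values were seen, had 1.68, 1.62 and 1.61 CPM in ddi-1(icb156), against 0.657, 1.98 and 0.636 CPM in wild type. Wild-type replicate 2 was the highest of the 6 samples there, and cyp-34A2 did not pass. Its log2 fold change was 0.59 ± 0.47 (adjusted p = 0.390, edgeR) with all samples, and 1.33 without wild-type replicate 2, where it passed. The exons of cyp-34A1 and cyp-34A2 each overlap those of a non-coding gene, T10H4.16 and T10H4.17.

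In the CYP13 family, a pair of genes that rose, cyp-13A1 and cyp-13A2, are neighbours in a tandem row. The genes cyp-13A1 to cyp-13A8 lie in a row on chromosome II, from 9779181 to 9807569. Of these 8 genes, 5 could be tested, 2 rose, and 4 had all ddi-1(icb156) samples above all wild-type samples, while the log2 fold changes had a median of 1.14 and ran from 0.51 to 1.94. Of all genes tested, 9.96% rose and 23.4% had every mutant sample above every wild-type sample. cyp-13A2 (WBGene00011676) was the most abundant of the row and had 17.6, 18.8 and 17.3 CPM in ddi-1(icb156), against 5.74, 11.9 and 6.79 CPM in wild type. The mutant samples were nearly equal, wild-type replicate 2 lay between them and the other wild-type samples, and the log2 fold change was 1.14 ± 0.28 (adjusted p = 0.0327, edgeR). cyp-13A1 (WBGene00011677) had 0.636, 0.644 and 0.880 CPM in ddi-1(icb156), against 0.153, 0.1002 and 0.305 CPM in wild type. The groups did not overlap, on 73 counts over the mutant samples and 23 over the wild-type samples, and the log2 fold change was 1.94 ± 0.43 (adjusted p = 0.0269, edgeR). cyp-13A1 needed mutant samples to be kept by the filter on low counts, since wild-type replicates 1 and 2 had 7 and 4 counts. Its passing is thus no separate support.

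Both calls in the row depended on single libraries. cyp-13A1 did not pass without ddi-1(icb156) replicate 2, ddi-1(icb156) replicate 3 or wild-type replicate 1, with a log2 fold change of 1.66 to 2.46 over the 6 fits. cyp-13A2 passed only without wild-type replicate 1 or wild-type replicate 2 among these fits, with a log2 fold change of 0.94 to 1.52. Another gene of the row, cyp-13A5, had 1.94, 3.17 and 2.16 CPM in ddi-1(icb156), against 0.504, 1.53 and 0.814 CPM in wild type. All mutant samples lay above all wild-type samples, yet cyp-13A5 did not pass (log2 fold change 1.36 ± 0.43, adjusted p = 0.0605, edgeR). It passed with the replicate block (1.43, adjusted p = 0.0219) and without wild-type replicate 2 (1.90). cyp-13A4, between them on the chromosome, had 0.636, 1.24 and 0.273 CPM in ddi-1(icb156), against 0.394, 0.802 and 0.331 CPM in wild type, and the groups overlapped. cyp-13A6 had 0.804, 1.24 and 0.911 CPM in ddi-1(icb156), against 0.350, 0.752 and 0.382 CPM in wild type. The groups did not overlap, but cyp-13A6 did not pass (log2 fold change 1.0001 ± 0.38, adjusted p = 0.0929, edgeR). It passed without wild-type replicate 2 (1.43), and its exons overlap those of a non-coding gene, T10B9.13. cyp-13A3, cyp-13A7 and cyp-13A8 were too low to test, with no sample above 0.395 CPM.

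**Figure D2:**
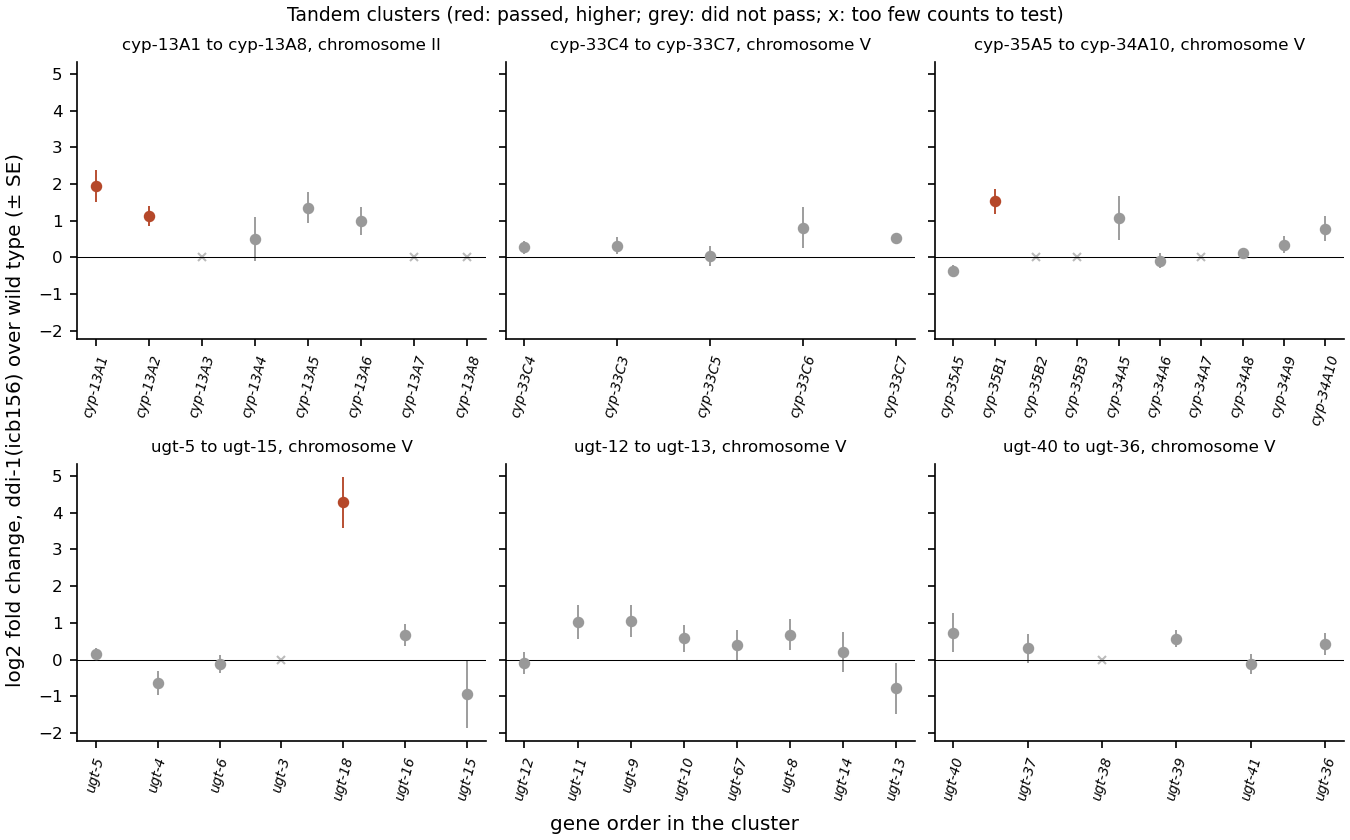
Fitted log2 fold change of ddi-1(icb156) over wild type with its SE (y axis) for the members of 6 tandem clusters in chromosomal order (x axis); red points passed as higher, grey points did not pass, and crosses mark members with too few counts to test. In the cyp-13A1 to cyp-13A8 cluster all 5 tested genes lie above 0, while in the ugt-5 to ugt-15 cluster ugt-18 stands alone.

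The CYP35 family is best known for its induction by foreign compounds in the intestine. Of its 8 tested genes of 10, 1 rose and 1 fell, where 9.96% and 13.4% of all genes tested did so. The median log2 fold change was -0.28 (range -0.56 to 1.53). cyp-35A2 (WBGene00015400, chromosome V, 7362319 to 7364182), a gene with a role in fat storage, was the most abundant P450 gene and the only tested one of all cyp genes to fall. It had 116, 105 and 97.3 CPM in ddi-1(icb156), against 176, 124 and 162 CPM in wild type. The groups did not overlap, with wild-type replicate 2 nearest to the mutants, and the log2 fold change was -0.54 ± 0.14 (adjusted p = 0.0386, edgeR). The call held in 1 of the 6 fits that left out a library, the one without wild-type replicate 2, over a range of -0.68 to -0.43. cyp-35A2 did not pass on library totals alone, under the stricter filter or on log2 TPM.

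The other cyp-35A genes did not pass, and their fitted log2 fold changes were -0.19 for cyp-35A3, -0.47 for cyp-35A4, -0.37 for cyp-35A5 and 0.41 for cyp-35A1. cyp-35A3 had 59.4, 45.3 and 47.8 CPM in ddi-1(icb156), against 74.8, 40.6 and 59.1 CPM in wild type. cyp-35A4 had 9.75, 8.01 and 7.56 CPM in ddi-1(icb156), against 15.9, 7.87 and 11.2 CPM in wild type, and cyp-35A5 had 23.6, 19.8 and 19.5 CPM in ddi-1(icb156), against 30.7, 20.9 and 29.4 CPM in wild type. In each of these 3 genes wild-type replicate 2 was the lowest wild-type sample and within or below the mutant range, and without it cyp-35A4 (-0.69) and cyp-35A5 (-0.52) passed as lower. cyp-35A1 had only 0.904, 1.26 and 0.729 CPM in ddi-1(icb156), against 0.722, 0.276 and 1.195 CPM in wild type, with overlapping groups.

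Against the cyp-35A genes, cyp-35B1 rose. This gene (WBGene00019472, chromosome V, 3939032 to 3941237) is known as a target of the insulin-pathway factor DAF-16. It had 0.938, 1.85 and 1.82 CPM in ddi-1(icb156), against 0.416, 0.626 and 0.560 CPM in wild type. ddi-1(icb156) replicate 1 was the lowest mutant sample but lay above all wild-type samples, and the log2 fold change was 1.53 ± 0.35 (adjusted p = 0.0280, edgeR). It passed in 2 of the 6 fits that left out a library, those without ddi-1(icb156) replicate 1 or wild-type replicate 2, over a range of 1.37 to 1.78. Its neighbours cyp-35B2 and cyp-35B3 were too low to test, with no sample above 0.0670 CPM. cyp-35B1 sits in a cluster of 10 genes on chromosome V (3936326 to 3972991) with cyp-35A5 and 6 cyp-34A genes, where 1 of 7 tested genes rose. Of all genes tested, 9.96% rose. cyp-35C1, a member induced by many compounds, had 75.1, 82.5 and 60.6 CPM in ddi-1(icb156), against 84.6, 75.4 and 82.6 CPM in wild type, and the groups overlapped (log2 fold change -0.15 ± 0.12, adjusted p = 0.377, edgeR).

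The CYP14 genes, likewise known from responses to foreign compounds, did not pass. Of 4 tested genes 0 rose and 0 fell, where 9.96% and 13.4% of all genes tested did so. At an unadjusted p under 0.05, 1 was higher and 0 lower, and DESeq2 called none. cyp-14A5 had 30.7, 27.4 and 32.8 CPM in ddi-1(icb156), against 14.3, 27.9 and 15.4 CPM in wild type. Wild-type replicate 2 lay inside the mutant range while the other wild-type samples were far below it, and the log2 fold change was 0.66 ± 0.26 (adjusted p = 0.109, edgeR), or 1.03 without that replicate, where cyp-14A5 passed. cyp-14A1 had 0.436, 1.31 and 1.03 CPM in ddi-1(icb156), against 0.701, 2.68 and 0.890 CPM in wild type, with wild-type replicate 2 the highest.

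Smaller increases passed in a pair of members with close replicates. cyp-37A1 (WBGene00008499, chromosome II, 14013819 to 14016965) had 54.5, 55.7 and 51.9 CPM in ddi-1(icb156), against 44.9, 43.7 and 43.9 CPM in wild type. The groups were well apart for their spread, and the log2 fold change of 0.29 ± 0.06 (adjusted p = 0.0195, edgeR) is a fold of 1.22. It was not called without ddi-1(icb156) replicate 2 or wild-type replicate 3 (range 0.27 to 0.32), and its exons overlap those of the coding gene F01D5.8. cyp-32A1 (WBGene00016147, chromosome V, 7781811 to 7784594) had 3.22, 3.55 and 3.76 CPM in ddi-1(icb156), against 2.50, 2.11 and 1.81 CPM in wild type. The groups did not overlap and the log2 fold change was 0.72 ± 0.19 (adjusted p = 0.0378, edgeR). cyp-32A1 no longer passed with the replicate block (0.72, adjusted p = 0.0672), and among the fits without 1 library it passed only without wild-type replicate 1 or wild-type replicate 2 (range 0.61 to 0.85).

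cyp-29A2, the fifth most abundant P450 gene, had 28.0, 33.2 and 25.3 CPM in ddi-1(icb156), against 36.6, 42.6 and 34.1 CPM in wild type. All mutant samples lay below all wild-type samples by a small margin, and the log2 fold change was -0.39 ± 0.13 (adjusted p = 0.0672, edgeR). cyp-29A2 passed as lower with the replicate block (-0.39, adjusted p = 0.0188, edgeR) but not without wild-type replicate 2 (-0.29). Of the 4 tested CYP25 genes 0 rose and 0 fell, beside 9.96% and 13.4% of all genes tested. Both at an unadjusted p under 0.05 and by DESeq2, 1 was higher and 1 lower. The log2 fold changes of the 4 ran from -0.72 to 0.48.

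The eggshell P450s did not pass. cyp-31A2 and cyp-31A3 are known as near-identical genes needed for the lipid barrier of the eggshell, so reads may be divided between them. cyp-31A2 had 16.5, 16.9 and 16.9 CPM in ddi-1(icb156), against 19.7, 16.01 and 20.4 CPM in wild type, and the groups overlapped through wild-type replicate 2. cyp-31A3 had 15.1, 13.7 and 15.4 CPM in ddi-1(icb156), against 21.1, 16.3 and 20.6 CPM in wild type. The mutant samples were all below the wild-type samples, and the log2 fold change was -0.39 ± 0.13 (adjusted p = 0.0627, edgeR), or -0.50 without wild-type replicate 2, where cyp-31A3 passed as lower. Of the 3 CYP31 genes 0 rose and 0 fell, beside 9.96% and 13.4% of all genes tested. Of these 3, 0 were higher and 1 lower both at an unadjusted p under 0.05 and by DESeq2. Their median log2 fold change of -0.28 stood beside -1.53 over the 12 oocyte and eggshell markers, most of which fell, and the part of that difference in the CYP31 values was not tested.

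P450s with known roles in fatty acid oxidation and oxygen responses did not pass either. cyp-13A12, which oxidises polyunsaturated fatty acids in the behavioural response to returning oxygen, had 1.78, 2.57 and 1.55 CPM in ddi-1(icb156), against 1.47, 3.01 and 1.76 CPM in wild type, and the groups overlapped. cyp-36A1, which acts downstream of HIF-1, had 5.43, 4.79 and 5.65 CPM in ddi-1(icb156), against 3.83, 5.01 and 3.05 CPM in wild type, and overlapped only through wild-type replicate 2 (log2 fold change 0.41 ± 0.21, adjusted p = 0.191, edgeR). It passed as higher without that replicate (0.61). The eicosanoid-forming cyp-29A3 had 8.91, 9.45 and 7.13 CPM against 5.69, 8.17 and 5.85 CPM, and cyp-33E2, which also makes eicosanoids, had 9.95, 12.6 and 10.1 CPM against 9.02, 10.8 and 8.67 CPM. Both overlapped between the groups, and without wild-type replicate 2 cyp-29A3 passed (0.56) while cyp-33E2 did not (0.30). cyp-44A1, which resembles the mitochondrial P450s of other animals, had 14.7, 15.8 and 12.5 CPM in ddi-1(icb156), against 16.2, 17.5 and 14.7 CPM in wild type. cyp-37B1 had 2.61, 2.50 and 2.88 CPM in ddi-1(icb156), against 6.31, 1.70 and 5.98 CPM in wild type, with wild-type replicate 2 below the mutants and the other wild-type samples far above them. Its log2 fold change was -0.81 ± 0.47 (adjusted p = 0.243, edgeR), or -1.21 without that replicate, where it passed as lower.

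Among the UDP-glucuronosyltransferases, ugt-18 showed the largest difference of either family. ugt-18 (WBGene00013900, chromosome V, 12820260 to 12822778) had 1.17, 3.48 and 2.61 CPM in ddi-1(icb156), against 0.0219, 0.226 and 0.127 CPM in wild type. It was scarcely detected in wild type, with 15 counts over 3 samples against 256 counts over the 3 mutant samples, and every mutant sample lay well above every wild-type sample. The log2 fold change was 4.28 ± 0.69 (adjusted p = 0.0114, edgeR), a fold of 19.5 whose size is imprecise at so few wild-type counts, and 3.76 to 5.04 over the fits without 1 library. ugt-33 (WBGene00007946, chromosome V, 10493409 to 10496477) had 5.39, 7.29 and 5.49 CPM in ddi-1(icb156), against 2.15, 2.76 and 2.47 CPM in wild type. The groups were clearly apart, and the log2 fold change was 1.30 ± 0.20 (adjusted p = 0.00815, edgeR). ugt-7 (WBGene00015739, chromosome V, 4997021 to 5000566) had 9.45, 8.24 and 9.14 CPM in ddi-1(icb156), against 5.36, 5.89 and 4.81 CPM in wild type. The mutant samples were all higher, with a log2 fold change of 0.74 ± 0.14 (adjusted p = 0.0177, edgeR). These 3 genes passed in all 6 fits that left out 1 library. However, ugt-18 was kept by the filter on low counts through its mutant samples alone. It was not tested under the stricter filter, so its passing is no separate support for the increase.

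Further ugt genes rose with wild-type replicate 2 standing nearest to the mutants. ugt-65 (WBGene00008583, chromosome IV, 12420683 to 12432636) had 39.0, 43.2 and 31.7 CPM in ddi-1(icb156), against 11.97, 25.1 and 14.4 CPM in wild type. ugt-45 (WBGene00021372, chromosome IV, 3748210 to 3751101) had 13.1, 14.3 and 12.8 CPM in ddi-1(icb156), against 5.71, 10.1 and 6.13 CPM in wild type. ugt-2 (WBGene00007073, chromosome V, 10398801 to 10401307) had 10.5, 11.02 and 10.8 CPM in ddi-1(icb156), against 4.79, 7.84 and 3.99 CPM in wild type. In none of these did the groups overlap, and the log2 fold changes were 1.15 ± 0.29 for ugt-65 (adjusted p = 0.0350, edgeR), 0.88 ± 0.23 for ugt-45 (adjusted p = 0.0389) and 0.96 ± 0.26 for ugt-2 (adjusted p = 0.0393). Of the fits without 1 library, each of the 3 genes passed only in that without wild-type replicate 2, where the log2 fold change was 1.53 for ugt-65, 1.18 for ugt-45 and 1.29 for ugt-2.

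In ugt-44 the order was the other way round. ugt-44 (WBGene00008486, chromosome IV, 10469741 to 10471899), the most abundant of the ugt genes that rose, had 60.8, 52.7 and 54.7 CPM in ddi-1(icb156), against 31.1, 23.5 and 39.8 CPM in wild type. Wild-type replicate 2 was the lowest of the 6 samples, and the log2 fold change was 0.83 ± 0.19 (adjusted p = 0.0286, edgeR), which passed without wild-type replicate 2 (0.66) or wild-type replicate 3 and in no other fit without 1 library. ugt-56 (WBGene00011453, chromosome V, 12258982 to 12261215) had 1.57, 1.49 and 1.58 CPM in ddi-1(icb156), against 0.832, 0.952 and 0.890 CPM in wild type. Its replicates were close and the groups apart, with a log2 fold change of 0.80 ± 0.19 (adjusted p = 0.0317, edgeR). It was not called with the replicate block (0.80, adjusted p = 0.0620), and of the fits without 1 library it passed only in that without wild-type replicate 2 (0.84). ugt-17 (WBGene00007422, chromosome V, 10102592 to 10104964) had 37.95, 42.04 and 34.1 CPM in ddi-1(icb156), against 29.8, 29.8 and 29.7 CPM in wild type. The wild-type samples were nearly equal and the mutant samples spread above them, with a log2 fold change of 0.35 ± 0.09 (adjusted p = 0.0331, edgeR). ugt-17 passed without ddi-1(icb156) replicate 3 or wild-type replicate 2 and in no other such fit (range 0.27 to 0.43), and it did not pass on log2 TPM.

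Lower levels passed in a pair of ugt genes. ugt-30 (WBGene00011340, chromosome V, 15121724 to 15125262) had 7.70, 7.18 and 7.35 CPM in ddi-1(icb156), against 15.2, 11.9 and 14.8 CPM in wild type. The mutant samples were close to each other and all below the wild-type samples, and the log2 fold change was -0.92 ± 0.13 (adjusted p = 0.00746, edgeR), which passed in all 6 fits without 1 library. ugt-47 (WBGene00011006, chromosome V, 10096305 to 10098597) had 63.9, 62.4 and 59.4 CPM in ddi-1(icb156), against 88.0, 69.4 and 85.4 CPM in wild type. The groups did not overlap, and the log2 fold change was -0.39 ± 0.10 (adjusted p = 0.0354, edgeR). Of the fits without 1 library, ugt-47 passed only in that without wild-type replicate 2 (-0.49), and its exons overlap those of the coding gene srd-49. It did not pass on library totals alone or on log2 TPM. ugt-47 and ugt-17, which moved in opposite directions, are neighbours on chromosome V. The lowest fold change of the family, picked here after its value was seen, was that of ugt-55 (log2 fold change -2.44 ± 1.09, adjusted p = 0.142, edgeR), which had 0, 0 and 0.425 CPM in ddi-1(icb156), against 0.460, 0.702 and 1.17 CPM in wild type, and did not pass.

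**Figure D3:**
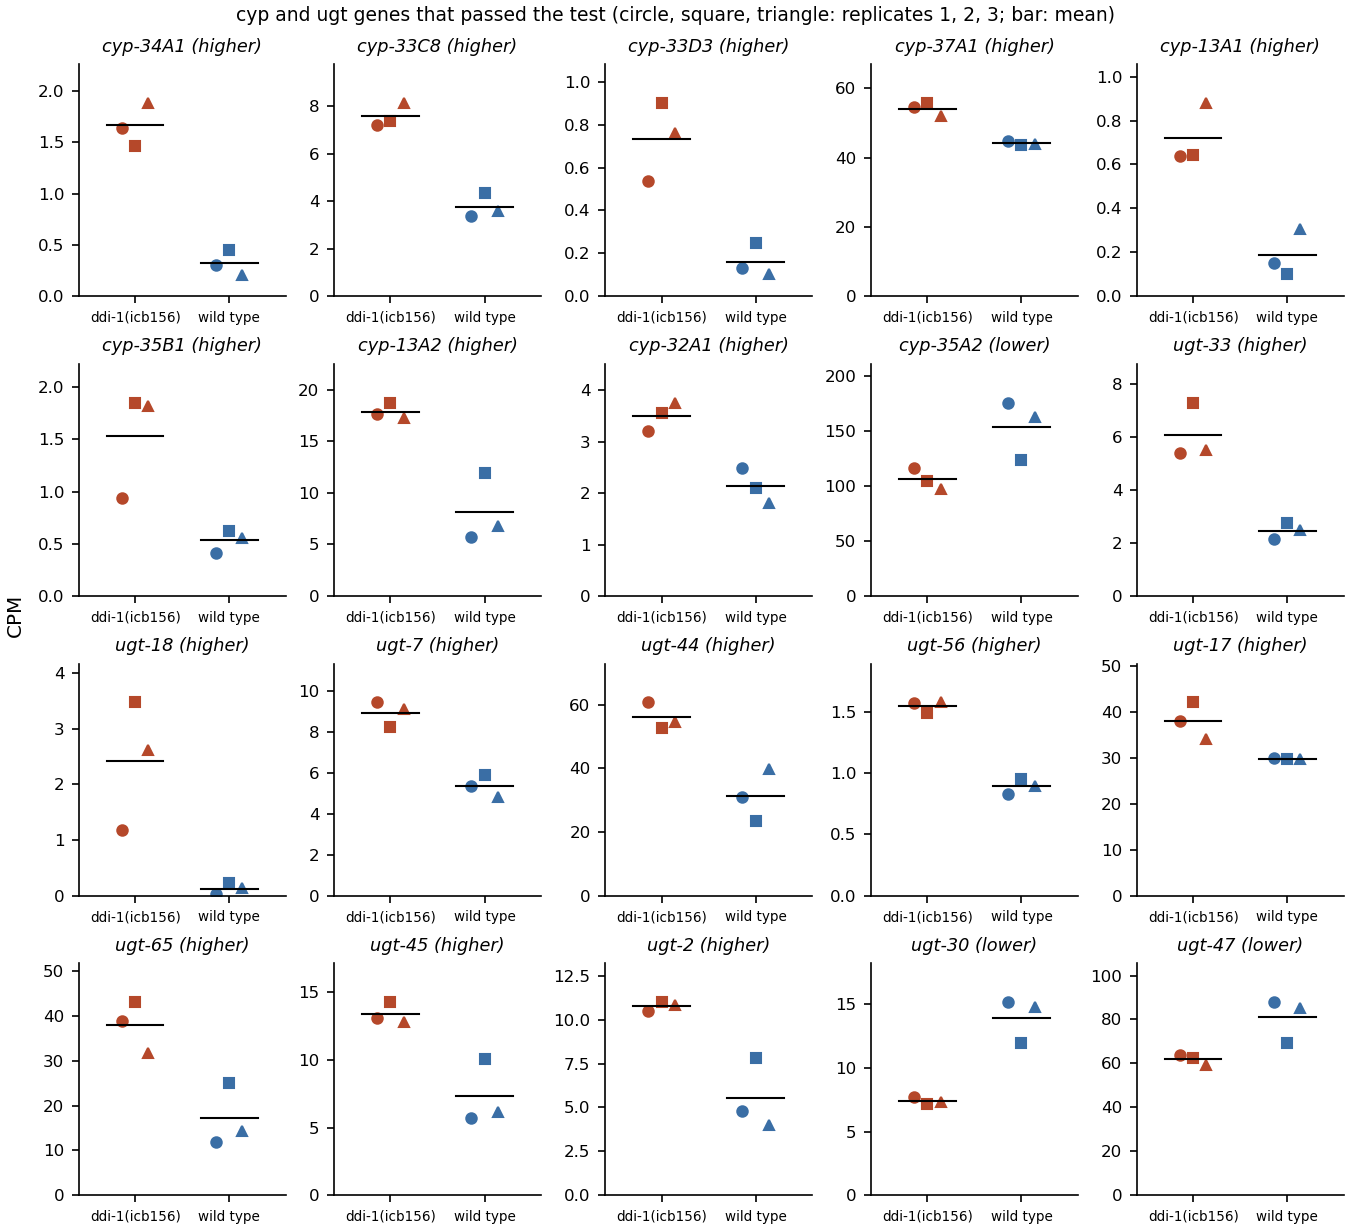
TMM-scaled CPM (y axes, each from 0) in each ddi-1(icb156) and wild-type sample for the 20 members that passed the test, with the mean as a bar. In every panel the groups are apart, and the square of wild-type replicate 2 is often the wild-type point nearest to the mutants, as in ugt-65 with 25.1 CPM.

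Members often lay side by side in the genome. With neighbours at most 20 kb apart counted as a cluster, 45 cyp genes formed 11 clusters and 37 ugt genes formed 10, and chromosome V held 41 cyp and 42 ugt genes. Within the clusters 4 of 36 tested cyp genes rose and 1 fell, against 4 and 0 of 24 outside them. For all genes tested the shares were 9.96% and 13.4%, and 19.7% rose without wild-type replicate 2. For ugt genes, 5 of 33 tested genes in clusters rose and 1 fell, against 4 and 1 of 30 outside. The ugt-5 to ugt-15 cluster (chromosome V, 12790676 to 12830114) held 6 tested genes of 7, of which only ugt-18 rose, and the others had log2 fold changes from -0.95 to 0.67. The ugt-12 to ugt-13 cluster (chromosome V, 4887165 to 4911399) had 8 tested genes, of which 0 passed, with 1 higher and 0 lower at an unadjusted p under 0.05 and none by DESeq2. The median there was 0.49 (range -0.78 to 1.05), and without wild-type replicate 2 it was 0.997 and 4 of the 8 rose. The ugt-40 to ugt-36 cluster (chromosome V, 7139475 to 7169281) had 5 tested genes of 6, of which 0 passed, with 1 higher and 0 lower at an unadjusted p under 0.05, none by DESeq2 and 2 that rose without wild-type replicate 2. Of the cyp-33C4 to cyp-33C7 cluster (chromosome V, 2236140 to 2252591) 0 of 5 tested genes passed, with 1 higher and 0 lower both at an unadjusted p under 0.05 and by DESeq2, and the range was 0.05 to 0.81.

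Every ddi-1(icb156) sample lay above both wild-type replicates 1 and 3 in 31 tested cyp genes, a state found in 35.3% of all genes tested. In 15 of these wild-type replicate 2 was also below every mutant sample, in 10 it was within the mutant range, and in 6 it was above every mutant sample. For ugt genes the corresponding numbers were 40 genes, of which 16, 15 and 9. In the other direction, every ddi-1(icb156) sample lay below both replicates in 16 cyp and 12 ugt genes, against 34.0% of all genes, and wild-type replicate 2 was also above every mutant sample in 5 and 4 of these. Wild-type replicate 2 was the highest of all 6 samples in 13 cyp and 17 ugt genes, against 17.1% of all genes. The largest such values, picked after they were seen, included ugt-13, with 8.91, 13.2 and 8.71 CPM in ddi-1(icb156), against 6.98, 38.6 and 7.40 CPM in wild type. In ugt-57 the ddi-1(icb156) samples had 17.7, 17.0 and 20.8 CPM, against 5.28, 27.9 and 7.10 CPM in wild type. There the mutants lay far above wild-type replicates 1 and 3 and below replicate 2, and ugt-57 did not pass (log2 fold change 0.46 ± 0.61, adjusted p = 0.608, edgeR) but did without replicate 2 (1.58).

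Set against the mean of wild-type replicates 1 and 3 on the log2(CPM + 0.5) scale, the median difference of the tested ugt genes was 0.34, 0.55 and 0.32 in the ddi-1(icb156) samples and 0.48 in wild-type replicate 2. For the tested cyp genes it was 0.15, 0.32 and 0.15 in the ddi-1(icb156) samples and 0.19 in wild-type replicate 2. In both families, therefore, the median of wild-type replicate 2 lay within the range of the mutants. ddi-1(icb156) replicate 2 was the highest mutant sample in 34 of 60 cyp and 40 of 63 ugt genes, and without it the ugt median log2 fold change was 0.09, while without wild-type replicate 2 it was 0.52.

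**Figure D4:**
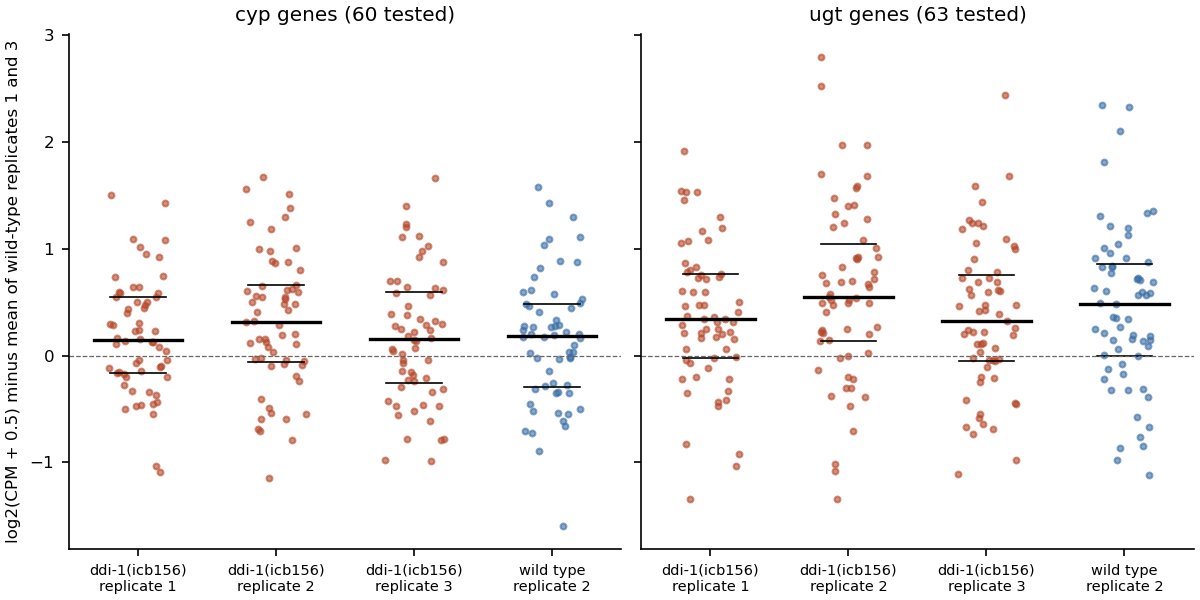
Difference of each tested member from the mean of wild-type replicates 1 and 3 on the log2(CPM + 0.5) scale (y axis) in the 3 ddi-1(icb156) samples and wild-type replicate 2 (x axis), for cyp genes (left) and ugt genes (right); thick lines are medians and thin lines quartiles. The median of wild-type replicate 2, 0.19 for cyp and 0.48 for ugt genes, lies within the range of the mutant medians.

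Levels between genes were compared as TPM, a measure scaled per length and per library. The summed TPM of the cyp genes was 428, 467 and 385 in the ddi-1(icb156) samples, against 460, 432 and 439 in the wild-type samples, and the groups overlapped. The summed TPM of the ugt genes was 861, 1007 and 810 in the ddi-1(icb156) samples, against 755, 926 and 760 in the wild-type samples. Here wild-type replicate 2 lay inside the mutant range and the other wild-type samples below it. Most members were low: 42 cyp and 50 ugt genes averaged at least 1 TPM over the 6 samples, 11 and 24 at least 10 TPM, and 26 cyp and 8 ugt genes stayed under 1 TPM in every sample.

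A few genes carried much of either sum. The 5 most abundant cyp genes held 44.4% to 47.2% of the family's TPM in the ddi-1(icb156) samples, against 46.4% to 53.9% in the wild-type samples, and the 5 most abundant ugt genes held 33.9% to 37.04% against 36.1% to 44.7%. ugt-22 was the highest of either family, with a mean of 145 ± 11.1 TPM in ddi-1(icb156) and 154 ± 6.01 TPM in wild type (SD, n = 3 each), apart from all other members by more than their spread. It did not pass (log2 fold change -0.12 ± 0.07, adjusted p = 0.232, edgeR), and its exons overlap those of the coding gene srz-29. cyp-35A2 came next, with 64.1 ± 6.03 TPM in ddi-1(icb156) and 90.5 ± 14.4 TPM in wild type. Next among the P450 genes was cyp-35C1, with 47.3 ± 9.01 TPM in ddi-1(icb156) and 50.9 ± 1.99 TPM in wild type. cyp-35A3 had 31.96 ± 3.98 TPM in ddi-1(icb156) and 35.6 ± 9.93 TPM in wild type, and cyp-37A1 had 34.6 ± 2.65 TPM in ddi-1(icb156) and 27.5 ± 0.402 TPM in wild type. cyp-35C1 lay above both by more than their SD, while the means of cyp-35A3 and cyp-37A1 differed by less than the SD of cyp-35A3 in either group. cyp-29A2 was lower, with 16.5 ± 3.02 TPM in ddi-1(icb156) and 21.0 ± 2.83 TPM in wild type.

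After ugt-22, the ugt genes were close to each other. ugt-46 had 48.6 ± 2.94 TPM in ddi-1(icb156) and 50.1 ± 3.88 TPM in wild type, and ugt-62 had 48.6 ± 6.23 TPM in ddi-1(icb156) and 47.6 ± 5.95 TPM in wild type. ugt-47, with 37.1 ± 2.36 TPM in ddi-1(icb156) and 47.2 ± 5.03 TPM in wild type, was within the spread of both in wild type. ugt-23 had 38.4 ± 3.49 TPM in ddi-1(icb156) and 35.7 ± 0.727 TPM in wild type, within the spread of ugt-47 in ddi-1(icb156) and below it in wild type. ugt-46, ugt-62 and ugt-23 did not pass, with log2 fold changes of -0.08, -0.0073 and 0.03, whose sign changed under some alternatives.

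**Figure D5:**
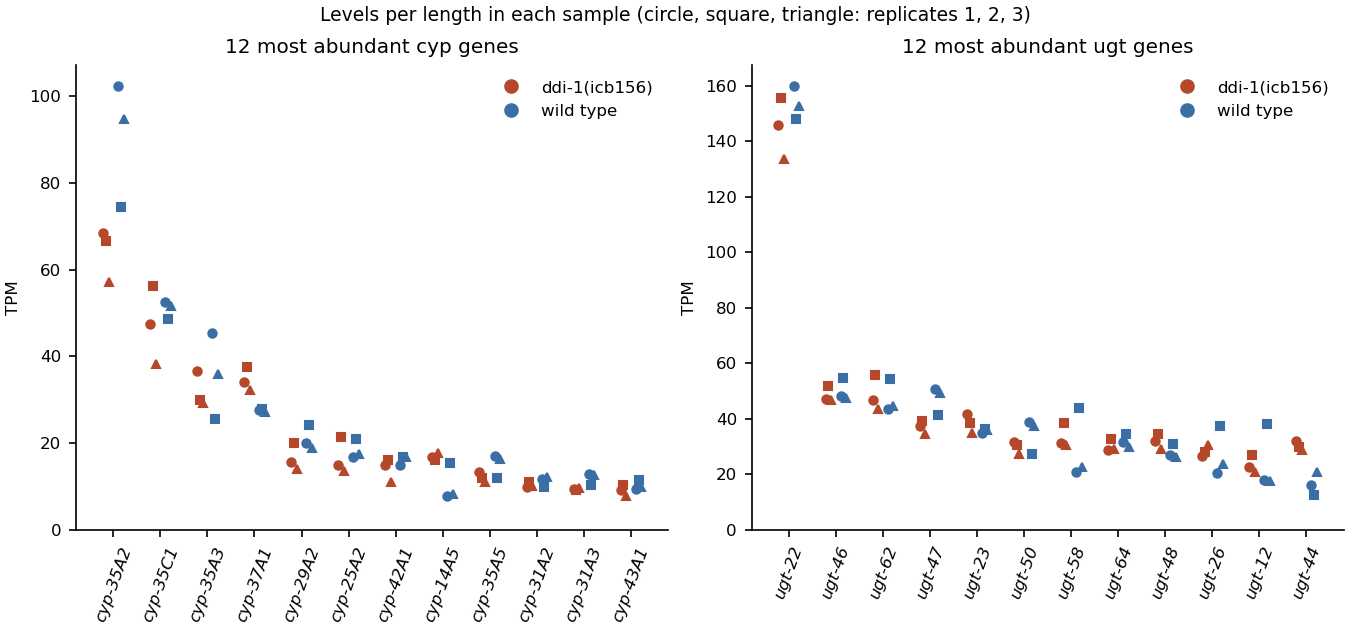
TPM (y axis, from 0) of the 12 most abundant cyp genes (left) and ugt genes (right) in each sample, ddi-1(icb156) in red left of wild type in blue. cyp-35A2 leads the P450 genes with 57.2 to 68.5 TPM in ddi-1(icb156) against 74.5 to 102 TPM in wild type, and ugt-22 stands far above the other ugt genes.

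Since DDI-1 acts on the response to a failing proteasome, members on the gene lists given in the study's supplement were counted. The list of genes induced by the proteasome inhibitor bortezomib names 8 of the cyp genes, of which 5 could be tested and 0 passed (1 higher and 0 lower both at an unadjusted p under 0.05 and by DESeq2), and their log2 fold changes had a median of 0.51. These were cyp-13A4, cyp-13A5, cyp-13A10, cyp-13A12 and cyp-36A1. Without wild-type replicate 2, 3 of the 5 rose, where 19.7% of all genes did so. With all samples, 9.96% of all genes tested rose and 13.4% fell. The same list names 5 ugt genes, ugt-10, ugt-16, ugt-37, ugt-59 and ugt-65, of which ugt-65 rose, and the median of the 5 was 0.57. ugt-16 had 42.9, 65.6 and 39.7 CPM in ddi-1(icb156), against 22.4, 43.97 and 26.6 CPM in wild type, and overlapped through wild-type replicate 2. It did not pass (log2 fold change 0.67 ± 0.30, adjusted p = 0.144, edgeR) except with the replicate block (0.70, adjusted p = 0.0137) or without wild-type replicate 2 (1.01). Of the list for the oomycete recognition response, ugt-15 had 0.770, 1.57 and 0.880 CPM in ddi-1(icb156), against 0.920, 5.04 and 0.356 CPM in wild type, and did not pass. The list for skn-1a(mg570) names cyp-13B1, which had 5.996, 9.73 and 5.74 CPM in ddi-1(icb156), against 3.61, 11.9 and 3.71 CPM in wild type and did not pass except without wild-type replicate 2 (0.97), and ugt-35, which was too low to test. No member counted here was on the list for the intracellular pathogen response.

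Of the redox partners of the P450s, emb-8 fell. This gene, which encodes the reductase that passes electrons from NADPH to P450s, had 101, 107 and 102 CPM in ddi-1(icb156), against 130, 143 and 137 CPM in wild type. All mutant samples were lower, with a log2 fold change of -0.40 ± 0.06 (adjusted p = 0.00804, edgeR). daf-9, a P450 outside the naming rule that makes the hormone ligands of DAF-12, had 13.4, 15.2 and 15.5 CPM in ddi-1(icb156), against 5.12, 7.27 and 4.65 CPM in wild type, and rose (log2 fold change 1.37 ± 0.19, adjusted p = 0.00659, edgeR). The cytochrome b5 genes cytb-5.1 and cytb-5.2 did not pass. Of the 4 genes that supply UDP-sugars, sqv-7, a Golgi transporter of UDP-sugars, fell to 24.4, 25.4 and 20.6 CPM in ddi-1(icb156), against 31.9, 28.1 and 32.7 CPM in wild type (log2 fold change -0.40 ± 0.11, adjusted p = 0.0392, edgeR), though not with the replicate block. sqv-4, which makes UDP-glucuronic acid, did not pass, nor did ugtp-1 and gale-1.

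Of 11 known regulators of detoxification genes, 0 rose and 0 fell, where 9.96% and 13.4% of all genes tested did so. At an unadjusted p under 0.05, 2 were higher and 2 lower, and DESeq2 called none. nhr-8, a nuclear receptor needed for resistance to toxins, had 31.96, 29.5 and 29.1 CPM in ddi-1(icb156), against 24.6, 20.0 and 28.8 CPM in wild type (log2 fold change 0.30 ± 0.14, adjusted p = 0.146, edgeR). skn-1, measured over all its transcripts, had 97.1, 107 and 107 CPM in ddi-1(icb156), against 102, 106 and 110 CPM in wild type. Since SKN-1A is regulated by cleavage of the protein, these levels do not measure its activity.

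In other detoxification families the counts stand beside the 9.96% of all genes that rose and the 13.4% that fell. Of the 22 ABC exporters of the pgp and mrp families, which move compounds out of cells, 6 rose (mrp-2, pgp-4, pgp-5, pgp-7, pgp-8 and pgp-14) and 2 fell (mrp-3 and pgp-2), with a median log2 fold change of 0.36. Of these, pgp-14 had 101, 146 and 154 CPM in ddi-1(icb156), against 30.8, 39.9 and 30.4 CPM in wild type (log2 fold change 1.99 ± 0.19, adjusted p = 0.00209, edgeR). Of the 4 tested flavin monooxygenases, fmo-1 rose (log2 fold change 0.76) and fmo-4 fell (-0.54), though fmo-4 did not pass with the replicate block. Of the 29 tested short-chain dehydrogenases, dhs-18 and dhs-31 rose and dhs-21 and dhs-26 fell, and the median was 0.03. However, the filter on low counts kept pgp-7 and dhs-31 through their mutant samples alone. The wild-type samples had 8, 6 and 6 counts for pgp-7 and 2, 4 and 5 counts for dhs-31. The passing of pgp-7 and dhs-31 is no separate support for an increase.

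The members that could not be tested were seen at a few counts. No member lacked counts in all 6 libraries, and the highest total over the 6 libraries was 56 counts among the 14 untested cyp genes and 52 counts among the 4 untested ugt genes. These genes were left out of the main fit for their low counts, so no statement is made on differences in them. A further limit lies in shared reads: exons of 24 cyp and 17 ugt genes overlap those of another gene, a coding one in 8 and 11 cases, and no source used here says whether the libraries keep strand. 26 cyp and 24 ugt genes have several annotated transcripts, and the division of counts between them shifted widely among replicates. In cyp-37A1, for example, one transcript had 405, 405 and 2.05 estimated counts in ddi-1(icb156), against 205, 994 and 1559 in wild type, so the sums per gene were used.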

How the data were processed

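Total RNA of whole L4 animals was sequenced by BGI in 3 ddi-1(icb156) and 3 wild-type libraries. The authors quantified reads with kallisto against the WormBase WS283 transcriptome and tested them with Sleuth (no source used here gives versions). The deposited tables hold, per transcript, the length, effective length and estimated counts, which the authors did not normalize and which kallisto divides between transcripts that share reads.

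Of 37058 transcripts, 30413 were joined to genes of WBcel235 by transcript ID and 6633 by sequence name, and 12 were not matched. Per gene, the estimated counts were added up and rounded. The 15409 genes kept by filterByExpr were fitted by edgeR 4.0.16 (R 4.3.3) with TMM factors (0.9692 to 1.072) and the robust quasi-likelihood test, two-sided. This filter can keep a gene detected in 1 group alone, and it kept ugt-18, cyp-33D3, pgp-7 and dhs-31 through their mutant samples. cyp-34A1 and cyp-13A1 also needed mutant samples to be kept, since not all their wild-type samples reached the level of the filter. Residual degrees of freedom were 4 and edgeR's biological coefficient of variation 0.202. CPM use the TMM-scaled totals, and TPM were computed from estimated counts and effective lengths. SE were derived from the fitted fold change and its test statistic. p-values set the difference between the groups against the spread between the samples of a group, and counts carry counting error that limits members with few counts.

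Deviations of same-numbered samples from their group means each correlated at over 0.1 (0.1137, 0.309 and 0.185 for replicates 1, 2 and 3), while pairs of unlike number ran from -0.29 to 0.1147, the highest being ddi-1(icb156) replicate 3 with wild-type replicate 1, so the replicate number was also fitted as a block. Alternatives were RLE size factors, library totals alone, DESeq2 1.42.0, no filter, a filter of 50 counts on average, limma 3.58.1 on log2(TPM + 1) and log2(TPM + 0.5), an adjusted p below 0.05 alone, members without exon overlap, and leaving out each library.

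Named were the passing members of smallest p (up to 10 a direction and family), the 5 of highest TPM a family, members with a known role, those on the published lists, clusters and CYP number families with at least 4 tested members, and partner genes. The CYP31 family and members said to be picked after their values were seen are outside this rule. The members, lists and tests were chosen with earlier results of these data known. Fold changes and tests of the authors were not used.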

Additional observations from a re-analysis of the deposited data

How the results depend on the processing

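With RLE size factors, without a filter on low counts and with an adjusted p below 0.05 alone, the counts of members that rose or fell stayed within 1.5 times those reported, and no member that passed changed direction under any alternative run. Of the named members that did not pass, 10 took the other sign under an alternative, among them ugt-15 (0.74 without wild-type replicate 2) and cyp-14A1 (0.25 without it). The 8 cyp genes that rose became 4 under the stricter filter and 5 among members without exon overlap, and 3 to 20 when 1 library was left out (20 without wild-type replicate 2, 3 without ddi-1(icb156) replicate 2). The 1 cyp gene that fell became 0 on library totals alone, under the stricter filter and on log2(TPM + 1) or log2(TPM + 0.5), 2 with the replicate block, 3 by DESeq2, and 0 to 7 without 1 library. The 9 ugt genes that rose became 14 by DESeq2, 16 with the replicate block and 3 to 26 without 1 library (26 without wild-type replicate 2, 3 without ddi-1(icb156) replicate 1 or 2). The 2 ugt genes that fell became 1 on library totals alone, on log2(TPM + 1), on log2(TPM + 0.5) and without exon overlap, and 1 to 7 without 1 library. The ugt median log2 fold change of 0.30 was 0.0923 (without ddi-1(icb156) replicate 2) to 0.5186 (without wild-type replicate 2) without 1 library, the cyp median of 0.19 was 0.0963 to 0.2895, and both stayed above 0 in every alternative. The stricter filter leaves fewer genes to test, and the exon-overlap setting fewer members; otherwise the cause was not tested. Near-identical copies could be left out by exon overlap only, since protein sequences were not used here. Library totals alone moved the median of all genes to 0.0891. Beyond the calls given in the text the replicate block changed no call of a named member.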
